A study of Homo sapiens with 8 samples.

Results

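Accessible chromatin was examined at 8 genes of the cell junctions that couple heart muscle cells end to end, DSP, PKP2, JUP, DSG2, DSC2, CDH1, CDH2 and CTNNA3. The genes were chosen by name, for what their proteins do, but with earlier results of these data known. CDH1 was added because epithelial cells exchange it for CDH2 when they become mesoderm. Every ATAC-seq peak that overlapped one of these genes, or the 20 kb on either side of it, was taken, and peaks of different libraries that overlapped were merged into 1 region. This gave 232 of the 285909 merged regions of the series. Of these, 113 could be tested, against 118980 in the whole series, and 119 could not, because fewer than 2 of the 8 libraries had a value above a common floor there.

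All libraries came from RUES2 cells, a human embryonic stem cell line in wide use, taken to heart muscle in culture and sampled at 4 stages, each with 2 replicate libraries. Undifferentiated cells (hESC, day 0) were kept in E8 medium and were collected after a day with CHIR-99021, a GSK3 inhibitor that turns on Wnt signalling. Mesoderm (MES, day 2) had then received RPMI with BSA, ascorbic acid and more CHIR-99021, cardiac progenitors (CP, day 5) also the Wnt inhibitor XAV-939 from day 3, and cardiomyocytes (CM, day 14) B27 supplement from day 7. The series calls the replicates biological, but whether each is a differentiation of its own is not given in the labels, so the tests measure the spread between these libraries of 1 cell line. In ATAC-seq the Tn5 transposase cuts accessible DNA, and the values used here are the fold of each peak over its local background, as the authors' peak caller gave it. In such bulk samples, fewer cells with an accessible site and less accessibility per cell cannot be told apart.

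Heart muscle cells meet at the intercalated disc, which holds desmosomes and adherens junctions side by side. In a desmosome, the cadherins desmoglein and desmocollin span the gap between the cells and bind plakoglobin and plakophilin inside, and desmoplakin ties these to the intermediate filaments. In an adherens junction, a classical cadherin is tied to actin through catenins. Stem cells in culture grow as an epithelium held together by E-cadherin, while heart muscle carries N-cadherin. Mutations in the desmosomal genes are a known cause of arrhythmogenic cardiomyopathy.

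At 6 of the loci, the region with the largest called difference between hESC and CM is shown here as 300 bases around its summit, on the plus strand of hg38. Capitals mark matches to motifs of factors that act in these cells, searched on both strands. The motifs were GATA (read as TGATAA or its variants AGATAA or TGATAG or AGATAG), NKX (TNAAGTG), TEAD (GGAATG), the E-box of ZEB and SNAI (CACCTG), the POU octamer (ATGCAAAT or its variant ATGCTAAT), AP-1 (TGANTCA), T-box (GGTGTGA) and the MEF2 consensus. No match shares letters with another in these 6 sequences. The DSP sequence lies in intron 4 at chr6:7561263-7561562 and holds 2 GATA matches and 1 TEAD match. The PKP2 sequence lies in intron 4 at chr12:32854150-32854449, with 4 GATA matches and 1 MEF2 match. The DSG2 sequence lies 11.8 kb upstream of the gene at chr18:31486209-31486508, with 2 GATA matches. The CDH1 sequence lies in intron 2 at chr16:68770723-68771022, with 3 GATA matches. These 4 regions rose towards CM. The other two fell. The CDH2 sequence lies in intron 2 at chr18:28088498-28088797 and holds 1 E-box and 1 NKX match, and the CTNNA3 sequence lies in intron 9 at chr10:66627198-66627497 and holds 1 TEAD and 1 AP-1 match. At DSC2 the region called between hESC and CM, a rise with 1 GATA match, is not shown. JUP had no called region.
DSP intron 4: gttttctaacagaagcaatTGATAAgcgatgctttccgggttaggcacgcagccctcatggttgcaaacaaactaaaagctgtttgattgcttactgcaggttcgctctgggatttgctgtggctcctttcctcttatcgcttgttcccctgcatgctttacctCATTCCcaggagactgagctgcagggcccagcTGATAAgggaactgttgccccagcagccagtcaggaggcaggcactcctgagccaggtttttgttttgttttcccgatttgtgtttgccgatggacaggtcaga
PKP2 intron 4: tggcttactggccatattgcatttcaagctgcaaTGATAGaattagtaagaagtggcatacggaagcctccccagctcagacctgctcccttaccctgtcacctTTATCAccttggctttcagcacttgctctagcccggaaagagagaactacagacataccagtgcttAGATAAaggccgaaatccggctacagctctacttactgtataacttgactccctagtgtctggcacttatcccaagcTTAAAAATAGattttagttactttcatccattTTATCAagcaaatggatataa
DSG2 upstream: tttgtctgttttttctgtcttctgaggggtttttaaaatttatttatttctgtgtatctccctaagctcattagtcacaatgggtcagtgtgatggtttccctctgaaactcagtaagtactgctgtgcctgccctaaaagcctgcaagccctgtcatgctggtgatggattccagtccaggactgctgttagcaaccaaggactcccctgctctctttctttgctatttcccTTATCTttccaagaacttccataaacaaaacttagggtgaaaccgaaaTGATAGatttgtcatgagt
CDH1 intron 2: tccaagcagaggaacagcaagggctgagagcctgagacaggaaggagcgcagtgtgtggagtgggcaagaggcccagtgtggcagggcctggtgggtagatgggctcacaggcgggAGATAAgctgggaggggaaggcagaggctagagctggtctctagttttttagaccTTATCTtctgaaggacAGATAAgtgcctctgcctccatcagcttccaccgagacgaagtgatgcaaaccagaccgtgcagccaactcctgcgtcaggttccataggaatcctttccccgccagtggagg
CDH2 intron 2: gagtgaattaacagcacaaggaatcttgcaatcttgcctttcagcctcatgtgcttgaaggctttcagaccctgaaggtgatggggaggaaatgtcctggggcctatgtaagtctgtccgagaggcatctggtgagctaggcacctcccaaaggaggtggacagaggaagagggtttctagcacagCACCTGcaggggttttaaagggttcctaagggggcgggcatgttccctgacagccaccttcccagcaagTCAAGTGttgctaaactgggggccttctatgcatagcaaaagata
CTNNA3 intron 9: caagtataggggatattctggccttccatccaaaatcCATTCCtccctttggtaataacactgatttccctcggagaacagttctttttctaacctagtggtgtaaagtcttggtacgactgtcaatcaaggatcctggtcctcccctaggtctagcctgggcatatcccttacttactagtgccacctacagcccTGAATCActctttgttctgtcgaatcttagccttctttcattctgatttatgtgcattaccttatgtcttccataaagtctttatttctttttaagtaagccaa

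The lists held 55777 peaks in CM replicate 2 and 92731 in CM replicate 1, against 99789 to 156179 in the 6 earlier libraries, on chromosomes 1 to 22 and X. Both CM libraries therefore had the fewest peaks, and CM replicate 2 also had the lowest background, at least 2.54 extended reads at any peak against 3.13 to 4.62 in the other libraries. In CM replicate 1 that background was 4.57, below hESC replicate 2 only, and the median fold of its peaks, 4.09, was the lowest of all libraries. Why its list was short was not tested. A site can be missing from a shallow list because it did not pass the threshold there. Of the promoters of marker genes that could be tested, those of cardiomyocyte genes were listed in both CM libraries for 5 of 5 and in both hESC libraries for 1 of 5 (ACTN2). The cardiomyocyte promoters of TTN, MYH6 and MYL7 rose from hESC to CM, and those of TNNT2 and ACTN2 were not called. Of the stem cell promoters, that of DPPA4 fell, those of SOX2 and LIN28A rose, and that of NANOG was not called. Rises were also called at 2 of 5 mesoderm promoters (EOMES and MESP1) and 3 of 4 cardiac progenitor promoters (NKX2-5, HAND1 and HAND2). Among neural promoters, 2 of 3 rose (PAX6 and SOX1). Of the 2 endothelial, 3 stromal and 3 endoderm promoters tested, none was called from hESC to CM by limma, and at an unadjusted p under 0.05 2 were higher and 1 lower. The F test called 1 of them, the endothelial promoter of KDR (adjusted p = 0.036). From hESC to CM it narrowly missed the limma threshold (0.31 ± 0.09, adjusted p = 0.0504). The part of other cell types in the results that follow was not tested.

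To compare the stages, log2 fold was centred on each library's median over the regions listed in all 8 libraries, values below the floor or not listed were put at the floor, and stages were compared with limma over all tested regions of the series. A difference from a floored value is a lower bound. At the 8 loci, 36 of 113 tested regions (31.9%) differed among the stages by the F test at an adjusted p under 0.05, against 27.8% in the whole series. From hESC to CM, 18 regions (15.9%) rose, against 6.88% of all tested regions, and 19 (16.8%) fell, against 17.2%. Pooled over the loci, the share that fell was thus near that of the series, and the share that rose was above it. These shares mix unlike loci. CTNNA3 alone held 49 of the 113 tested regions, with 3 of the 18 rises and 12 of the 19 falls. Regions of 1 locus are not independent samples of the 8 genes. The median difference from hESC to CM was 0 at the loci and -0.05 over all tested regions, on the centred log2 scale. The sizes of the 37 called differences lay between 0.19 and 1.65. Without CM replicate 1, 4 of 97 regions rose, against 3.33% in the series, and without CM replicate 2, 14 of 117 rose, against 5.12%. The excess of rises at the loci was thus small without CM replicate 1. Without hESC replicate 2, 5 of 99 regions fell, against 7.93%. With no centring, 12 regions rose and 17 fell at the loci, and 2.27% and 14.0% in the series.

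Neighbouring stages were compared in the same fit, and regions called there need not differ between hESC and CM. From hESC to MES, 5 regions rose (4.42%, against 7.29% in the series) and 9 fell (7.96%, against 7.93%). From MES to CP, 3 rose (2.65%, against 1.36%) and 5 fell (4.42%, against 6.31%). From CP to CM, 12 rose (10.6%, against 2.53%) and 2 fell (1.77%, against 1.96%). The step from CP to CM thus held the most called rises at the loci and the step from hESC to MES the most falls, 8 of these 9 at CTNNA3. The step of a call need not be the step of first listing. Of the 18 regions that rose from hESC to CM, 5 were already listed in both CP libraries and 6 in exactly 1 of them. The 3 rises from MES to CP were at DSP, DSG2 and CDH1, and the 5 rises from hESC to MES were at CDH2 and CTNNA3. The steps share stages and are not independent.

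Counted from the lists alone, 18 of the 232 regions (7.76%) were listed in both CM libraries and in neither hESC library, against 3.15% of all merged regions. Another 30 (12.9%) were listed in both hESC libraries and in neither CM library, against 13.5%. Of the 18 regions that rose by the test, 12 lay in introns, 4 downstream of the gene, 1 upstream and 1 at a transcript start. Of the 19 that fell, 17 lay in introns and 2 upstream. In 17 of the 18 risen regions both hESC values were at the floor, and in 17 of the 19 fallen regions both CM values were. Such values have no spread, so that the error in these tests came from the other libraries. Of the called regions, 11 were listed in 2 libraries only. These were 7 risen regions listed in the CM pair and 4 fallen ones listed in the hESC pair. They passed the filter only through the stage where they are high, and all their other values lay at the floor. Their adjusted p-values in limma are therefore no support beyond the lists themselves. Fitted with only the regions that all 8 libraries list, none of the 19 such regions at the loci was called by limma, and at an unadjusted p under 0.05 4 were higher in CM, 2 were lower and 3 differed by the F test. Of all such regions of the series, 4.50% rose, 3.04% fell and 2.63% were called by the F test. These shares are at an adjusted p, and the series was not counted at the unadjusted threshold.

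**Figure D1:**
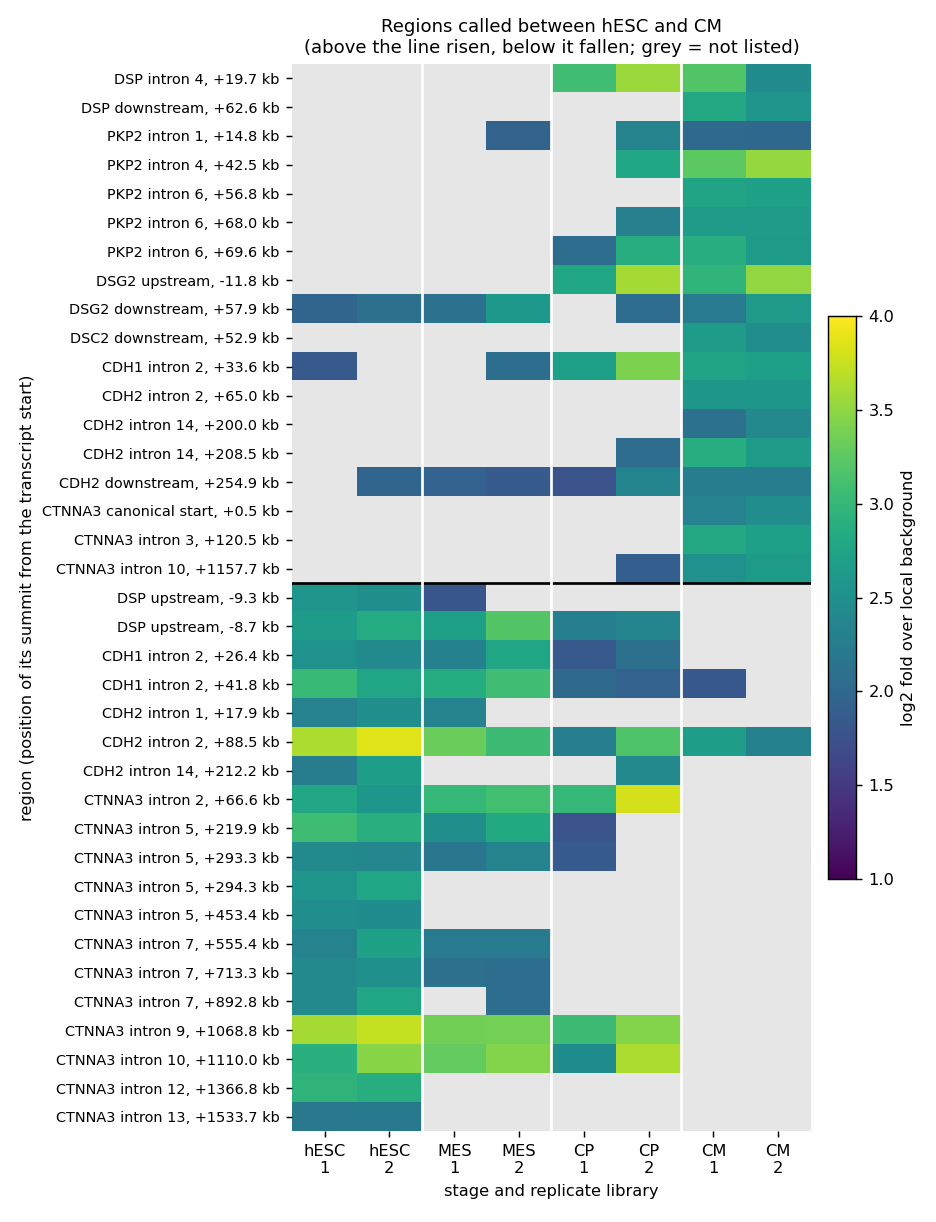
Log2 fold over local background in each of the 8 libraries for the regions called between hESC and CM by limma at an adjusted p under 0.05, 18 risen above the black line and 19 fallen below it, with positions in kb from the transcript start. Grey fields are libraries whose list lacks the region. Most risen regions are grey in hESC and MES, and 17 of the 19 fallen regions are grey in CM.

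The promoter region of a gene was the 1 region nearest to the start of its canonical transcript, within 500 bp. None of these 8 regions was called by the F test, or from hESC to CM in either direction, while among 13085 protein-coding promoters of the series 7.69% were called by the F test, 9.90% rose and 2.32% fell. At an unadjusted p under 0.05, 4 of the 8 promoters were higher in CM and 1, that of CDH1, was lower, and 3 differed by the F test. The share of all promoters at that unadjusted threshold was not computed, so these counts have no baseline. With no centring, the differences were 0.20 at DSP, 0.14 at JUP and 0.10 at CDH2, and -0.78 at CDH1. At 7 of the 8 genes, all but CTNNA3, the promoter was listed in all 8 libraries, as were 91.3% of all promoters.

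**Figure D2:**
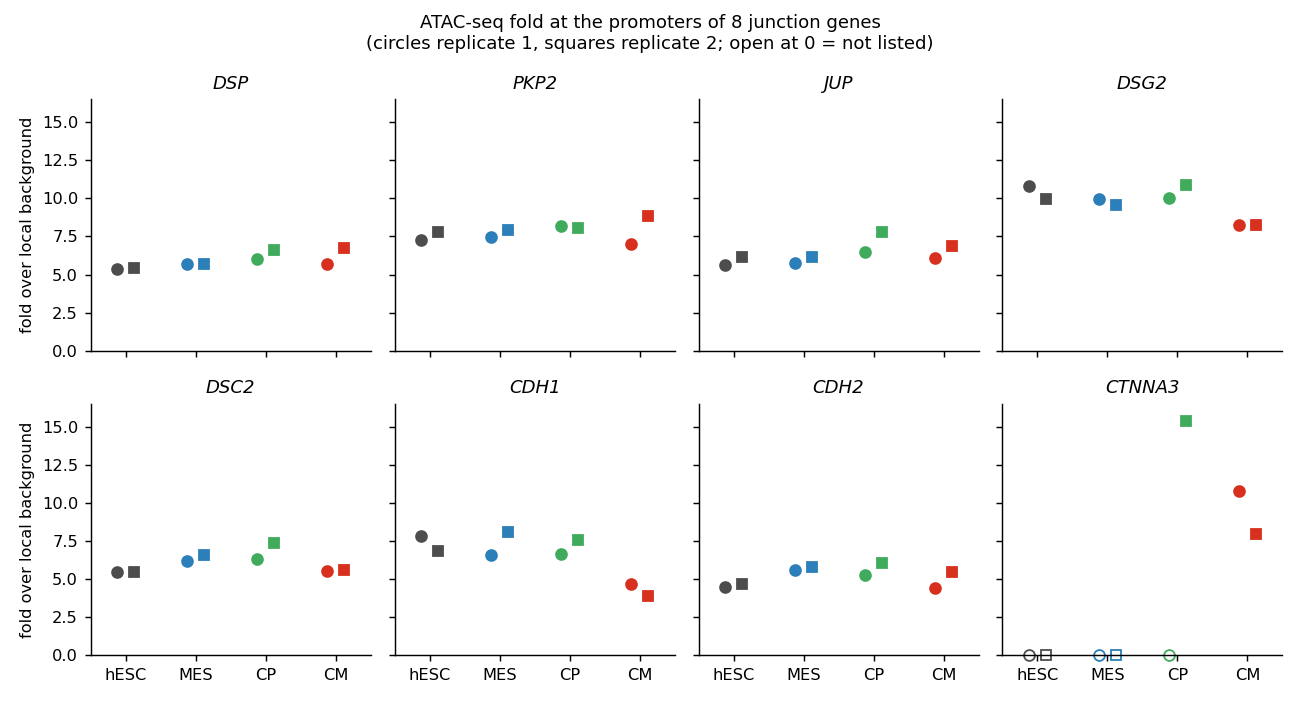
Fold over local background at the promoter region of each gene, by stage, with replicate 1 as circles and replicate 2 as squares. Open symbols at 0 mark libraries whose list lacks the region. At 7 genes every library has a value between 3.89 and 10.9, and CTNNA3 is listed in CP replicate 2 and both CM libraries only.

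DSP encodes desmoplakin, the plaque protein that anchors intermediate filaments. The gene lies at chr6:7541338-7586714 on the plus strand, and its locus held 8 regions, all tested. The promoter region, which also holds the start of the antisense RNA DSP-AS1, had folds of 5.36 and 5.42 at hESC, 5.69 and 5.68 at MES, 6.03 and 6.63 at CP, and 5.70 and 6.73 at CM. Both CM values were above both hESC values, and the difference of 0.42 ± 0.13 (SE) on the centred log2 scale did not pass the test (adjusted p = 0.060). In intron 4, 19.7 kb from the start (chr6:7561203-7561770), no peak was listed in hESC or MES, and the folds were 8.46 and 11.7 at CP and 9.06 and 5.46 at CM. This region rose by at least 1.02 ± 0.25 from hESC to CM (adjusted p = 0.031) and by at least 1.23 from MES to CP (adjusted p = 0.037). It is the first of the sequences shown above. A second region rose 62.6 kb from the start, with folds of 7.00 and 5.94 at CM and no peak elsewhere (0.89 ± 0.12, adjusted p = 0.0055), and it lies beyond the end of DSP, inside the neighbouring gene SNRNP48.

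Upstream of DSP, 2 regions fell. The region at -8.7 kb (chr6:7532766-7533198) had folds of 6.30 and 7.21 at hESC, 6.51 and 9.14 at MES and 4.90 and 5.11 at CP, and was not listed in CM. All hESC and MES values were above all CP values, and it fell by 0.74 ± 0.17 from hESC to CM on the log2 scale (adjusted p = 0.024). The region at -9.3 kb, next to it, had folds of 5.91 and 5.63 at hESC and 3.49 in MES replicate 1, and was listed nowhere later (-0.51 ± 0.07, adjusted p = 0.0049). At DSP, regions upstream of the gene were thus no longer listed in CM, and others in and beyond it were newly listed. The rise in intron 4 passed the test in 6 of 15 alternatives. It missed it with adjusted p = 0.053 to 0.128 whenever 1 library other than CM replicate 2 was left out. The difference was 0.62 without CM replicate 1 and 1.66 without CM replicate 2. The fall at -8.7 kb missed it with adjusted p = 0.063 to 0.126 when any hESC or CM library was left out.

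PKP2 encodes plakophilin 2, the armadillo protein of the desmosomal plaque that is the most often mutated gene in arrhythmogenic cardiomyopathy. The gene lies at chr12:32790745-32896798 on the minus strand. Of the 21 regions at its locus, 7 were tested, 5 rose and none fell. The promoter had folds of 7.30 and 7.78 at hESC, 7.48 and 7.94 at MES, 8.18 and 8.06 at CP, and 7.03 and 8.87 at CM. As deposited, its CM folds lay on either side of all others. After centring both CM values (0.25 and 0.51) were above those of hESC (0.07 and 0.12) and MES, and the difference of 0.29 ± 0.15 did not pass the test (adjusted p = 0.25). In intron 4, 42.5 kb from the start (chr12:32854129-32854495), a peak was listed at 6.97 in CP replicate 2, 9.46 in CM replicate 1 and 11.5 in CM replicate 2, and in no hESC or MES library. This was the largest rise at the 8 loci, at least 1.59 ± 0.19 (adjusted p = 0.0043), and its −log10 q was 15.8 to 37.4 where it was listed.

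Intron 6 of PKP2 held 3 more regions that rose. The one 69.6 kb from the start had folds of 4.18 and 7.29 at CP and of 7.28 and 6.21 at CM (0.96 ± 0.18, adjusted p = 0.015). The one at 68.0 kb had folds of 4.94 in CP replicate 2 and of 6.30 and 6.33 at CM (0.87 ± 0.09, adjusted p = 0.0039), and the one at 56.8 kb had folds of 6.72 and 6.58 at CM alone (0.94 ± 0.09, adjusted p = 0.0038). None of the 3 was listed in hESC or MES. A weaker region in intron 1, 14.8 kb from the start, had folds of 3.89 in MES replicate 2, 5.05 in CP replicate 2, and 4.09 and 4.02 at CM, and its rise of 0.23 ± 0.05 (adjusted p = 0.029) was small, since these folds lie close to the floor. The rise in intron 4 passed the test in all 15 alternatives that tested it, with differences of 1.48 to 1.80. That at 69.6 kb missed it with no centring (0.92, adjusted p = 0.066) and with no filter (0.96, adjusted p = 0.060). It also missed it without hESC replicate 1 (difference 0.96), hESC replicate 2 (0.96) or CM replicate 1 (0.80).

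JUP encodes plakoglobin, which sits in both desmosomes and adherens junctions. The gene lies at chr17:41754604-41786931 on the minus strand. Its 14 regions included 6 that were listed in all 8 libraries, and 6 regions were tested. None of these was called by limma in any comparison of stages, and at an unadjusted p under 0.05 3 were higher in CM than in hESC and 1 differed by the F test. The share of the series at that unadjusted threshold was not computed. The promoter had folds of 5.61 and 6.18 at hESC, 5.76 and 6.12 at MES, 6.50 and 7.79 at CP, and 6.07 and 6.90 at CM. As deposited, CP replicate 2 was highest and hESC and CM overlapped. After centring both CM values (0.04 and 0.15) were above all others, hESC stood at -0.31 and -0.21, and the difference of 0.36 ± 0.11 did not pass the test (adjusted p = 0.058). The largest difference was 6.3 kb upstream, with folds of 4.84 and 5.63 at hESC and 6.08 and 7.73 at CM, which did not pass the test either (0.61 ± 0.21, adjusted p = 0.081). Of the other regions listed everywhere, the one 52.1 kb from the start is the start of the neighbouring gene HAP1.

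DSG2 encodes desmoglein 2, the main desmoglein of heart muscle. The gene lies at chr18:31498177-31549008 on the plus strand. Its promoter had folds of 10.8 and 9.95 at hESC, 9.94 and 9.58 at MES, 10.0 and 10.9 at CP, and 8.28 and 8.23 at CM. Both CM folds were below all others as deposited, but the median fold of shared regions was also lower in CM, by a log2 difference of -0.22, and after centring the difference was -0.11 ± 0.12 (adjusted p = 0.58), or 0.048 without CM replicate 2. The region 11.8 kb upstream (chr18:31486182-31486883) was not listed in hESC or MES, and had folds of 6.98 and 12.1 at CP and of 7.79 and 11.4 at CM. It rose by at least 1.44 ± 0.21 from hESC to CM (adjusted p = 0.0062), and by at least 1.12 from MES to CP (adjusted p = 0.029). Its −log10 q was 18.8 to 58.0, and it passed the test in all 15 alternatives that tested it.

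A region 57.9 kb from the start of DSG2, beyond its end, was listed in 7 libraries, with folds of 3.96 and 4.32 at hESC, 4.38 and 6.06 at MES, 4.22 in CP replicate 2, and 4.72 and 6.10 at CM. Its MES and CM values overlapped, and its rise from hESC to CM of 0.59 ± 0.15 (adjusted p = 0.038) missed the threshold when any hESC, CP or CM library was left out (adjusted p = 0.051 to 0.146). With no centring it was 0.38 (adjusted p = 0.36). In intron 1, 13.1 kb from the start, the highest folds were 4.91 and 5.42 at CP, with 3.34 in hESC replicate 2, 3.76 in MES replicate 1 and no peak in CM. This region was called by the F test (adjusted p = 0.046), and no longer so when any hESC, MES or CM library was left out (adjusted p = 0.056 to 0.114) or with a replicate block (0.066). No region at DSG2 fell from hESC to CM.

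DSC2 encodes desmocollin 2, the partner of desmoglein 2. It lies in the same cadherin cluster, at chr18:31058840-31102522 on the minus strand. Its promoter, which also holds the start of the antisense RNA DSCAS, had folds of 5.47 and 5.48 at hESC, 6.17 and 6.54 at MES, 6.27 and 7.32 at CP, and 5.52 and 5.57 at CM. As deposited, MES and CP folds were all above those of hESC and CM. After centring this was not so, since CM (-0.10 and -0.16) was above MES (-0.23 and -0.28) and among the values of CP (-0.07 and -0.18), and the F test did not call the region (adjusted p = 0.27). One region rose, 52.9 kb from the start and beyond the end of the gene (chr18:31049150-31049753), with folds of 6.28 and 5.53 at CM and no peak in the other libraries (0.77 ± 0.11, adjusted p = 0.0057). It lies between DSC2 and DSC3. The start of DSC3, 59.8 kb from that of DSC2, was listed in all libraries with folds of 4.55 to 7.34, and was not called.

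CDH1 encodes E-cadherin, the adhesion protein of epithelia and of pluripotent cells. The gene lies at chr16:68737292-68835537 on the plus strand, and 9 of its 21 regions were tested. Its promoter had folds of 7.81 and 6.82 at hESC, 6.58 and 8.10 at MES, 6.61 and 7.52 at CP, and 4.65 and 3.89 at CM. Both CM values were below all 6 earlier ones, and the centred log2 difference from hESC of -0.56 ± 0.16 narrowly missed the threshold (adjusted p = 0.052). The −log10 q of the promoter was 35.9 to 66.0 in the 6 earlier libraries and 15.2 and 5.88 at CM. The difference passed the test with no centring (-0.78, adjusted p = 0.034), with the stricter q (-0.58, adjusted p = 0.047) and with lists of equal length (-0.58, adjusted p = 0.044). Without CM replicate 2 it was -0.28 (adjusted p = 0.37), and without hESC replicate 1 it was -0.45 (adjusted p = 0.20).

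Intron 2 of CDH1 held regions that moved in both directions. The region 41.8 kb from the start (chr16:68778562-68779380) had folds of 8.13 and 6.84 at hESC and 7.24 and 8.44 at MES, then 4.10 and 3.85 at CP, 3.55 in CM replicate 1 and no peak in CM replicate 2. It fell by 0.85 ± 0.14 from hESC to CM (adjusted p = 0.0081) and by 0.79 from MES to CP (adjusted p = 0.023). The region at 26.4 kb, with folds of 5.84 and 5.41 at hESC, 5.00 and 6.82 at MES, 3.58 and 4.30 at CP and no peak in CM, fell by 0.48 ± 0.13 (adjusted p = 0.044). Between these regions, the one at 33.6 kb (chr16:68770479-68771326) had folds of 3.57 in hESC replicate 1, 4.25 in MES replicate 2, 6.46 and 10.7 at CP, and 6.74 and 6.46 at CM, with no peak in the other two libraries. All CP and CM values were above those of the earlier stages, and it rose by at least 0.93 ± 0.15 from hESC to CM (adjusted p = 0.0085) and by at least 0.97 from MES to CP (adjusted p = 0.017). A rising region thus stood between 2 falling ones in the same intron.

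These CDH1 calls did not all hold when a library was left out. The fall at 41.8 kb missed the threshold without CM replicate 2 (-0.69, adjusted p = 0.097), and the rise at 33.6 kb without hESC replicate 2 (0.93, adjusted p = 0.052) or CM replicate 1 (0.86, adjusted p = 0.055). The fall at 26.4 kb missed it in 11 of 15 alternatives, among them every one that left out an hESC, CP or CM library (adjusted p = 0.065 to 0.163) and the replicate block (0.070).

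CDH2 encodes N-cadherin, the classical cadherin of heart muscle. The gene lies at chr18:27932879-28177946 on the minus strand, and 24 of its 47 regions were tested. Its promoter had folds of 4.47 and 4.65 at hESC, 5.57 and 5.78 at MES, 5.27 and 6.04 at CP, and 4.39 and 5.45 at CM. As deposited, the folds of hESC and CM overlapped. After centring they did not, with log2 values of -0.64 and -0.62 for hESC and -0.43 and -0.19 for CM, and the difference of 0.32 ± 0.13 did not pass the test (adjusted p = 0.12). The ratio of the CDH2 to the CDH1 promoter fold, in which the scale of a library cancels, was 0.572 and 0.682 at hESC, 0.847 and 0.714 at MES, 0.797 and 0.803 at CP, and 0.945 and 1.40 at CM. It was highest in both CM libraries and lowest in both hESC libraries, and was above 1 in CM replicate 2 only. It is a ratio of folds and not of transcripts.

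At CDH2, 4 regions rose from hESC to CM and 3 fell. The largest rise was in intron 14, 208.5 kb from the start, with folds of 4.18 in CP replicate 2 and 7.28 and 6.33 at CM (0.97 ± 0.12, adjusted p = 0.0043). In intron 2, 65.0 kb from the start, a peak was listed in CM only, at a fold of 6 in each library (0.79 ± 0.08, adjusted p = 0.0040). The other two rises were of 0.48 each, in intron 14 and beyond the end of the gene.

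The largest fall was also in intron 2, 88.5 kb from the start (chr18:28088459-28088841), where folds were 12.4 and 14.4 at hESC, 9.95 and 8.31 at MES, 4.91 and 9.06 at CP, and 6.39 and 4.98 at CM. All 8 lists held this region, both hESC folds were above all others, and it fell by 1.03 ± 0.25 (adjusted p = 0.030). It was the only called region at the loci with a value above the floor in every library. It missed the threshold when any hESC or CM library was left out, with differences of -1.23 to -0.69 and adjusted p = 0.053 to 0.173. The falls in intron 14 at 212.2 kb (-0.46 ± 0.13, adjusted p = 0.048) and in intron 1 at 17.9 kb (-0.40 ± 0.11, adjusted p = 0.044) were smaller. The former was lost in 10 of 14 alternatives, and was -0.28 without hESC replicate 2 (adjusted p = 0.092).

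Other CDH2 regions were listed in MES and not at either end. The region 8.1 kb upstream had folds of 6.42 and 7.93 at MES and the one 12.4 kb upstream had folds of 5.43 and 5.92, and neither was listed in another stage. Both were called by the F test (adjusted p = 0.0068 and 0.0069), but passed the filter through MES alone, so these p-values are no support beyond the lists. In intron 2, 69.1 kb from the start, folds were 6.83 and 8.90 at MES and 4.88 in CP replicate 1, with no peak in the other libraries (F test, adjusted p = 0.023). The F test did not call this last region when any hESC, MES or CM library was left out (adjusted p = 0.050 to 0.095). All 3 regions rose from hESC to MES, by 0.72 at -8.1 kb, 0.38 at -12.4 kb and 0.84 at 69.1 kb.

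CTNNA3 encodes alpha-T-catenin, the alpha-catenin of heart and testis that links cadherins to actin and binds plakophilin 2. The gene spans 1851 kb at chr10:65912457-67763637 on the minus strand and holds the gene LRRTM3 on the other strand within an intron. Its locus held 100 of the 232 regions, of which 49 were tested, 3 rose and 12 fell. At the canonical start (chr10:67696017-67696407) no peak was listed in hESC, MES or CP replicate 1, and folds were 15.4 in CP replicate 2 and 10.8 and 7.91 at CM. The CP libraries stood far apart, and the difference of at least 1.41 ± 0.51 from hESC to CM was not called (adjusted p = 0.099). With 1 CP library left out, whichever it was, the difference was 1.42. Leaving 1 out also removes the spread between the CP libraries, the largest of any stage here (SD 1.20). Such a fit therefore cannot show whether the rise holds. A second region inside this start, 0.461 kb into the gene, was listed in CM only, at 5.03 and 5.56, and rose by at least 0.61 ± 0.07 (adjusted p = 0.0041).

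Another start of CTNNA3, that of longer transcripts at -68.3 kb from the canonical one, was listed in all 8 libraries with folds of 7.96 to 9.23 and was not called (0.35 ± 0.15, adjusted p = 0.16). The start of LRRTM3 was listed in all 8 libraries too, with folds of 7.56 to 14.1 (-0.01 ± 0.18). The canonical start of CTNNA3 was thus listed late and the upstream one throughout. The other rises were in intron 3, 120.5 kb from the start, with folds of 7.00 and 6.50 at CM only (0.96 ± 0.10, adjusted p = 0.0040), and in intron 10, 1157.7 kb from the start, with 3.72 in CP replicate 2 and 5.74 and 6.22 at CM (0.79 ± 0.08, adjusted p = 0.0039).

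The 12 falls at CTNNA3 all lay in introns. The largest was in intron 9, 1068.8 kb from the start (chr10:66627158-66627533), with folds of 12.1 and 13.3 at hESC, 10.3 and 10.3 at MES, 8.33 and 10.9 at CP and no peak in CM. It fell by at least 1.65 ± 0.10 from hESC to CM on the log2 scale (adjusted p = 0.0037), with a first step of -0.41 to MES (adjusted p = 0.038) and a last one of -1.17 from CP to CM (adjusted p = 0.013). It passed the test in all 15 alternatives that tested it. In intron 10, 1110.0 kb from the start, folds were 7.5 and 11.1 at hESC, 9.72 and 10.9 at MES, 5.49 and 12.4 at CP, and again no peak was listed in CM (-1.17 ± 0.29, adjusted p = 0.034). This call did not hold without hESC replicate 2, a MES library or a CM library (adjusted p = 0.061 to 0.166).

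In intron 2 of CTNNA3, 66.6 kb from the start, folds were 6.94 and 5.99 at hESC, 8.00 and 8.56 at MES, 7.99 and 14.0 at CP, and no peak was listed in CM. It was highest in CP replicate 2 and fell from CP to CM by at least 1.32 (adjusted p = 0.017). A region in intron 12, 1346.9 kb from the start, peaked at MES, with folds of 5.32 and 5.16 at hESC, 7.69 and 11.7 at MES and no peak later (F test, adjusted p = 0.012). Of the 12 regions that fell from hESC to CM, 8 had already fallen from hESC to MES by the test.

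The number of peaks at a locus was compared as well, scaled to the length of each list and tested with limma over 19157 protein-coding genes. The F test called 4 of the 8 loci, against 5.82% of all genes. From hESC to CM, 2 loci rose, against 6.51%, and 1 fell, against 1.47%. PKP2 had 2 and 3 peaks in hESC, 4 and 6 at MES, 4 and 10 at CP, and 8 and 8 at CM. Relative to list length this was a log2 difference of 2.20 ± 0.34 (adjusted p = 1.8e-07), and both CM libraries were above both hESC libraries even in plain number. CDH2 had 8 and 20 peaks in hESC and 18 and 12 at CM, which overlap as numbers, and rose by 1.01 ± 0.23 (adjusted p = 0.0018) relative to list length. CTNNA3 had 34 and 46 peaks in hESC, 38 and 56 at MES, 22 and 37 at CP, and 16 and 12 at CM, and fell by 0.63 ± 0.19 on the log2 scale (adjusted p = 0.022).

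The fourth locus called by the F test was JUP, with 10 and 14 peaks in hESC, 7 and 10 at MES, 10 and 11 at CP, and 11 and 9 at CM (adjusted p = 0.036), where MES was lowest relative to list length. CDH1 had 11 and 15 peaks in hESC and 9 and 3 at CM, a difference of -0.31 ± 0.27 relative to list length (adjusted p = 0.45). DSP, DSG2 and DSC2 had 3 to 9 peaks in every library and were not called, with differences of 0.82, 0.71 and 0.82 (adjusted p = 0.079, 0.18 and 0.11). DSP was called with the gene span alone (1.61, adjusted p = 0.0021) and the stricter q (0.93, adjusted p = 0.032), DSC2 with the stricter q (1.30, adjusted p = 0.0073), and DSG2 with 50 kb either side (1.00, adjusted p = 0.035). Without CM replicate 1, the rise was called at DSP (0.98, adjusted p = 0.039), DSC2 (1.05, adjusted p = 0.044) and JUP (0.82, adjusted p = 0.048). These counts depend on list length. With every list cut to its 55777 strongest peaks, the F test called none of the 8 loci, 3 differed by it at an unadjusted p under 0.05, and the difference was 2.17 at PKP2 (adjusted p = 0.10), 1.75 at CDH2 (adjusted p = 0.039) and -0.40 at CTNNA3 (adjusted p = 0.31). Single libraries mattered too, since CDH2 missed the threshold without hESC replicate 1 (0.70, adjusted p = 0.12) and CTNNA3 without hESC replicate 1, hESC replicate 2 or CM replicate 1 (-0.72 to -0.46, adjusted p = 0.077 to 0.150).

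**Figure D3:**
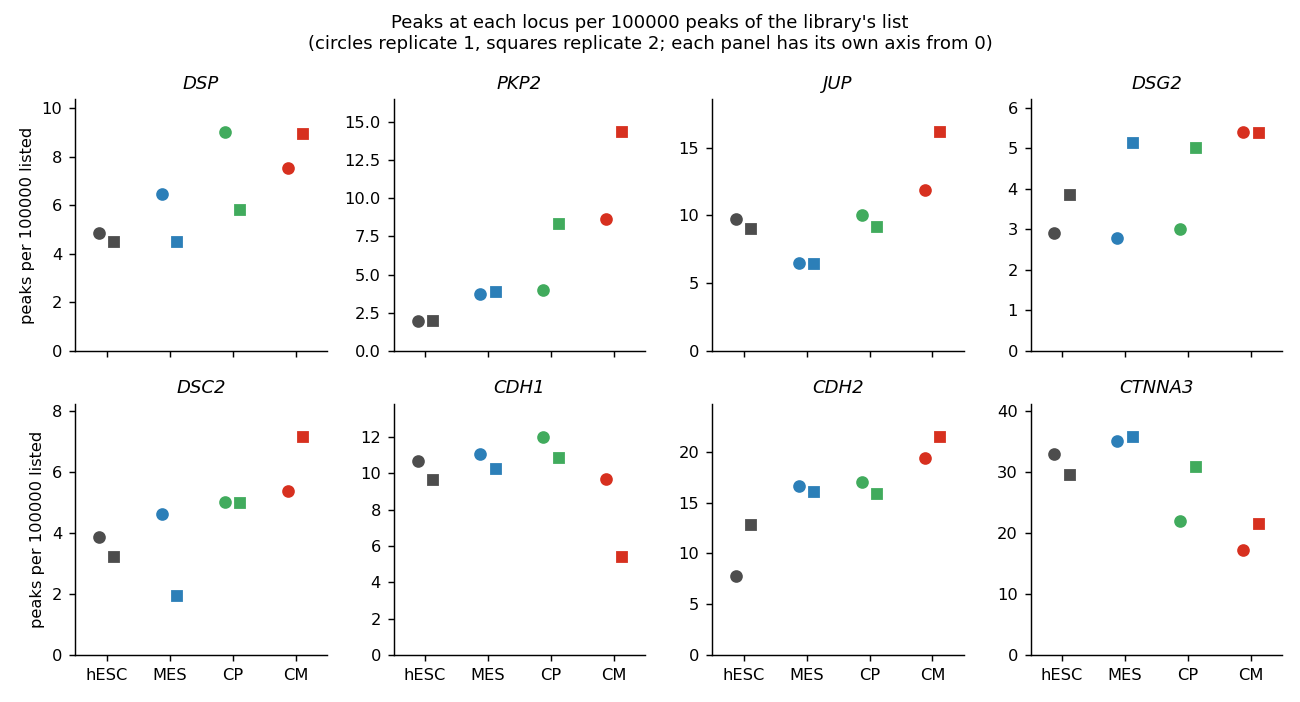
Peaks listed at each locus per 100000 peaks of the library's list, by stage, with replicate 1 as circles and replicate 2 as squares and an axis from 0 for each gene. PKP2 is at 1.94 and 1.92 in hESC and at 8.63 and 14.3 in CM, and CTNNA3 goes from 33.0 and 29.5 to 17.3 and 21.5.

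The motifs marked in the sequences were counted in the 300 bases around the summit of every tested region. A GATA match, the letters read by the GATA factors of heart and mesoderm, was in 15 of the 18 regions that rose at the loci (83.3%), against 52.9% of all regions that rose in the series. Among all tested regions it was in 58 of 113 (51.3%) at the loci and in 38.3% in the series. It was in 6 of the 19 regions that fell (31.6%), against 35.7% in the series. A MEF2 match was in 3 of the 18 risen regions, 1 of them the PKP2 sequence above, and in none of the 19 fallen ones, against 6.70% and 1.32% in the series. An NKX match was in 6 risen (33.3%) and 6 fallen (31.6%) regions, against 22.9% and 15.2%. The E-box of ZEB and SNAI, repressors of E-cadherin, was in none of the risen and 4 of the fallen regions, against 16.4% and 32.7%. The octamer of POU5F1 was in none of the risen regions and 1 of the fallen ones, against 1.98% and 9.17% in the series. TEAD matches were in 4 risen and 6 fallen regions, against 23.4% and 23.6% in the series. AP-1 matches were in 4 and 3, against 12.2% and 13.9%, and T-box matches in none, against 4.27% and 5.19%. The tested regions at the loci held fewer G and C than those of the series (median 46.7% against 50.7%), and a match says nothing of whether a factor bound there.

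A list of 48 other genes of junctions and of the cadherin switch was read at its promoters only, and 37 of these were tested. The F test called 3 of them, against 7.69% of all promoters, and from hESC to CM 5 rose, against 9.90%, and 2 fell, against 2.32%. The largest rise was at LRRC10, which encodes a leucine-rich repeat protein of heart muscle, with folds of 4.30 and 3.65 at MES, 6.98 and 6.04 at CM and no peak in hESC or CP (0.91 ± 0.12, adjusted p = 0.0050). GJC1, the gap junction protein connexin 45, rose by 0.56 ± 0.15 (adjusted p = 0.040). The other rises were at TWIST1 (0.53 ± 0.11) and SNAI1 (0.45 ± 0.11), repressors of E-cadherin, and at VCL (0.39 ± 0.10), which encodes vinculin of the adherens junction. Other such repressors on the list did not rise by the test. SNAI2 (-0.07 ± 0.12) and ZEB1 (0.02 ± 0.13) were not called, and ZEB2 had no tested promoter. The falls were at CDH6, a cadherin of kidney and brain, with folds of 10.8 and 11.0 at hESC and 6.63 and 4.72 at CM (-0.74 ± 0.21, adjusted p = 0.049), and at DSG3, a desmoglein of skin, with 5.32 and 8.19 at hESC, 4.27 and 5.57 at CP and no peak in MES or CM (-0.71 ± 0.19, adjusted p = 0.039). The promoters of GJA1, the main gap junction protein of working heart muscle, and of CTNNB1, which encodes beta-catenin, were listed in all 8 libraries and had differences of 0.13 ± 0.14 and 0.32 ± 0.14, which did not pass the test. The median difference of the 37 promoters was 0.23 on the centred log2 scale. Centring takes out a log2 difference of -0.22 between the library medians of CM and hESC. The median over all promoters was not computed, so 0.23 has no baseline.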

How the data were processed

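ATAC-seq libraries of 4 stages, 2 replicates each, were aligned by the authors to hg38 with BWA-MEM (BWA 0.7.13 in the submitters' processing notes), primary alignments with a mapping quality above 30 were kept, duplicates were removed with Picard, and peaks were called library by library with MACS2 2.1.0, with the q-value set to 0.01, reads moved back by 100 bp and then extended to 200 bp, which centres them on the transposase cut. The deposited lists, which the notes also link to bedtools 2.26.0, give each peak's summit fold over local background, a ratio, and its −log10 p-value and −log10 q-value. From the deposited fold and −log10 p-value, a whole-number pileup was recovered within 0.001 for 100% of peaks.

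Peaks on chromosomes 1 to 22 and X were merged where they overlapped, and the strongest peak of a library gave its value. Gene spans and canonical starts came from GENCODE 44. Log2 fold was centred on the 28115 regions listed in all 8 libraries. Values under the floor, the highest 5th percentile among the libraries (-0.81 after centring), were set to it, and regions above it in fewer than 2 libraries were not tested. Stages were compared with limma 3.58.1 in R 4.3.3 (lmFit and eBayes with trend, 4 residual degrees of freedom), with Benjamini-Hochberg adjustment over all tested regions at 0.05. Counts at an unadjusted p were made for the named genes only, without the share of the series. Peaks per locus were compared as log2 of the number plus 1 over the list length. The same steps were also run on simulated data, whose outcome is not given here. Its values had noise in all 8 libraries before the floor was set, and no stage was left unlisted by design. It is therefore no check of calls that rest on unlisted stages. The rule for named regions took, at each locus, the promoter, the 2 largest called rises and 2 largest called falls from hESC to CM, and the F-called region highest in MES and CP against the ends. Other regions were named after their values were seen. From the 48 other genes it took up to 6 promoters called in each direction. The 8 genes, the lists and this rule were chosen with earlier results of these data known. Tables and figures used Python 3.11.15, numpy 2.4.6, pandas 2.3.3 and matplotlib 3.10.9. The read depth is known only through the lists and their background, and intervals on single values were not computed.

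Alternatives were no centring, recovered pileup, a floor at the 1st percentile, no filter, only regions listed in all 8 libraries, a −log10 q of at least 5, lists cut to 55777 peaks, other windows, another pseudocount, a replicate block, and each library left out in turn.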

Additional observations from a re-analysis of the deposited data

How the results depend on the processing

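At the 8 loci, 18 regions rose from hESC to CM. The number called, whether or not of the same regions, was 12 to 20 under the alternatives that kept all libraries and most regions, 13 with no filter, 0 among regions listed in all 8 libraries, where 19 could be tested, and 4 to 19 with a library left out, the fewest without CM replicate 1. Against 19 falls, the number called was 17 to 25 with no centring, recovered pileup, the lower floor or the stricter q, 8 with no filter, 0 among regions listed in all 8 libraries, 9 with lists of equal length, and 5 to 19 with a library left out (11 without hESC replicate 1, 5 without hESC replicate 2, 9 without CM replicate 1 and 7 without CM replicate 2). The F test called 36 regions, 28 to 46 under the other alternatives with all libraries, 19 with no filter, 0 among regions listed in all 8 libraries, and 19 to 43 with a library left out (19 without CM replicate 1 and 23 without CM replicate 2). Unadjusted counts for the regions listed in all 8 libraries stand with the results. Leaving out a CM library also removes the regions listed in the CM pair only, so that 97 regions were tested without CM replicate 1. With lists of equal length 69 were tested.

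The 18 regions newly listed in CM were 19 to 32 with a library left out, and the 30 no longer listed were 12 with lists of equal length and 32 to 66 with a library left out, the most without hESC replicate 1. Of the 4 loci called by peak number, 0 were called with lists of equal length, and 2 to 4 with a library left out (2 without hESC replicate 1 or a MES library). The difference at the DSG2 promoter was -0.11, ranged from -0.19 to 0.048 with a library left out, and turned to 0.048 without CM replicate 2. Beyond what construction shows, the cause was not tested. With no centring, 2.27% of all regions rose and 14.0% fell, against 6.88% and 17.2%.

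Same-numbered libraries deviated together among hESC, MES and CP (r = 0.13 to 0.19) but not with CM (r = -0.12 to 7.4e-05), and the labels name no shared batch, so the numbers were not taken to pair the samples. With a replicate block, 18 regions rose, 16 fell, 34 were called by the F test, and 4 loci by peak number, and of the regions followed through the alternatives, the calls at 13.1 kb of DSG2 and 26.4 kb of CDH1 were lost. Among the regions described, calls at -11.8 kb of DSG2, 42.5 kb of PKP2 and 1068.8 kb of CTNNA3 held under all 15 alternatives that tested them. Other calls also held wherever they were tested, but in 12 or 13 alternatives. These were at 62.6 and -9.3 kb of DSP, 52.9 kb of DSC2, 208.5 and 65.0 kb of CDH2, and 120.5 and 1157.7 kb of CTNNA3. The rises among them were not tested without a CM library, nor the fall at -9.3 kb without an hESC library. The alternatives most able to change these calls thus did not test them, and holding in the others is weak support. Values at the floor have no spread, and with 2 libraries a stage the tests rest on 4 residual degrees of freedom.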
